A study of Rattus norvegicus with 9 samples.

Results

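The genes of the lysosome described here are 56 of the 32792 genes in the deposited expression table. They are 26 rows whose symbol starts with Atp6v or Atp6ap, the subunits and accessory proteins of the proton pump, and 30 named genes for lysosomal hydrolases, their cofactors, membrane proteins and delivery receptors. They were chosen by symbol, cathepsins were left out, and all 30 names were found. RNA was taken from vascular smooth muscle cells of rat thoracic aorta, with 3 libraries in each of 3 groups. Cells of the control group carried an empty vector and were given bovine serum albumin (BSA). Cells of the next group carried the empty vector too but were exposed for 24 h to 200 µg/mL of advanced glycation end products (AGEs), which form when sugars react with proteins and are abundant in diabetes. In the last group cathepsin D (CTSD), a lysosomal aspartic protease, was overexpressed by transfection under the same exposure. So every library came from transfected cells, and overexpression was sequenced under AGEs only. The sources used here do not name the promoter of the construct or the species of its CTSD sequence, nor do they say whether the libraries of a group were separate cultures. The spread behind each p-value is therefore that of these libraries, which may be technical.

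Lysosomes digest proteins, glycans and lipids delivered by endocytosis and autophagy. Their hydrolases work in acid, which a rotary pump of the membrane, the V-ATPase, keeps up by spending ATP: its V1 sector hydrolyses ATP on the cytosolic side and its V0 sector carries protons across the membrane. Most soluble hydrolases reach the lysosome through mannose 6-phosphate receptors, and many lysosomal genes carry the CLEAR element, an E-box that the transcription factor TFEB binds. In vascular smooth muscle, lysosomal function is known to bear on lipid loading and on the shift between contractile and synthetic states.

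Levels are given as FPKM, which divides a gene's fragments by its length and by the library's total, so that genes of different length can be compared. The libraries held 4492521 to 5341791 assigned fragments. Ctsd itself stood at 11.7, 14.6 and 12.9 FPKM in the empty-vector BSA libraries, 13.2, 14.8 and 13.7 in the empty-vector AGEs libraries, and 195, 199.7 and 203 in the CTSD libraries. The exact two-sided permutation p for Ctsd was 0.1 between the CTSD and empty-vector AGEs libraries, the smallest that 3 against 3 allows. Of 10 smooth muscle markers, Tpm2, Smtn, Cald1, Acta2 and Tagln could be tested, Myocd was listed at 0 throughout, and Myh11, Cnn1, Des and Lmod1 had 24, 37, 9 and 3 fragments over all libraries. Macrophages are rich in lysosomes, and 10 of 12 macrophage markers, Ptprc, Adgre1 and Lyz2 among them, were listed at 0 in all 9 libraries. Cd68 and Csf1r made up the rest, and the summed level of the list was 0.152 to 1.61 FPKM in BSA, 0.143 to 0.971 in empty-vector AGEs and 0.924 to 1.76 in CTSD libraries. A marker listed at 0 does not show that macrophages were absent. B2m and Fth1, which nearly every cell uses, were at 0 in all 9 libraries too. In RNA from whole cultures, fewer cells of a type and less RNA per cell cannot be told apart.

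Of the 56 lysosomal genes, 34 had at least 1 FPKM in at least 3 libraries and were tested, 17 of them in the pump and 17 among the named genes. The 13 members with no fragment were listed at 0 in every library, namely the pump genes Atp6v1b1, Atp6v1c2, Atp6v1g3 and Atp6ap1l, and the named genes Scarb2, Cln3, Glb1, Idua, Arsb, Lipa, Npc2, Psap and Grn. The other 9 under the filter were Atp6v0a4, Atp6v0d2, Atp6v1e2, Atp6v1fnb, Atp6v1g1, Npc1, Gaa, Gusb and Man2b1, with 1 to 58 fragments over all 9 libraries. All 3 soluble cofactor genes were at 0: Psap, the precursor of the saposins that help enzymes reach sphingolipids, Grn, the progranulin gene, and Npc2, which hands cholesterol to the membrane. A listed 0 cannot be read as silence in this table, since B2m and Fth1, genes that nearly every cell uses, were also at 0 in all 9 libraries. Atp6v1g1, the widely expressed form of the pump's G subunit in mammals, had 23 fragments in all.

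Among tested members the level ran over more than 2 orders of magnitude. B2m and Fth1 had no fragments in this table, so a low value need not mean low expression either. Whether the order of genes below reflects expression or missing fragments was not tested. The proton-carrying ring of V0 led, with means over all libraries of 373 FPKM for Atp6v0c and 371 for Atp6v0b, followed by Lamp1, a heavily glycosylated protein of the lysosomal membrane, at 250.4. Atp6v0d1, which joins the ring to the central stalk, stood at 243, Cd63, a tetraspanin of late endosomes and lysosomes, at 172 and the accessory subunit gene Atp6ap1 at 166. Listed values for subunits of a single complex differed widely. Of the 2 subunits that form the catalytic head of V1, Atp6v1b2 stood at 162 FPKM and Atp6v1a at 17.2. The tested Atp6v0a genes, for V0 a subunits that form the proton half-channels, were low, with Atp6v0a1 at 10.6 and Atp6v0a2 at 5.12. An a subunit gene with another symbol would not be among the members. Among hydrolases the sphingolipid enzyme gene Smpd1 (acid sphingomyelinase) at 62.7 FPKM and the peptidase gene Tpp1 at 61.0 were highest, and Naglu, for heparan sulfate breakdown, was lowest at 4.51. The mannose 6-phosphate receptor genes Igf2r and M6pr, at 2.90 and 1.49 FPKM, lay below every tested hydrolase. Atp6v1g2 was the lowest tested member, at 0.967.

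**Figure D1:**
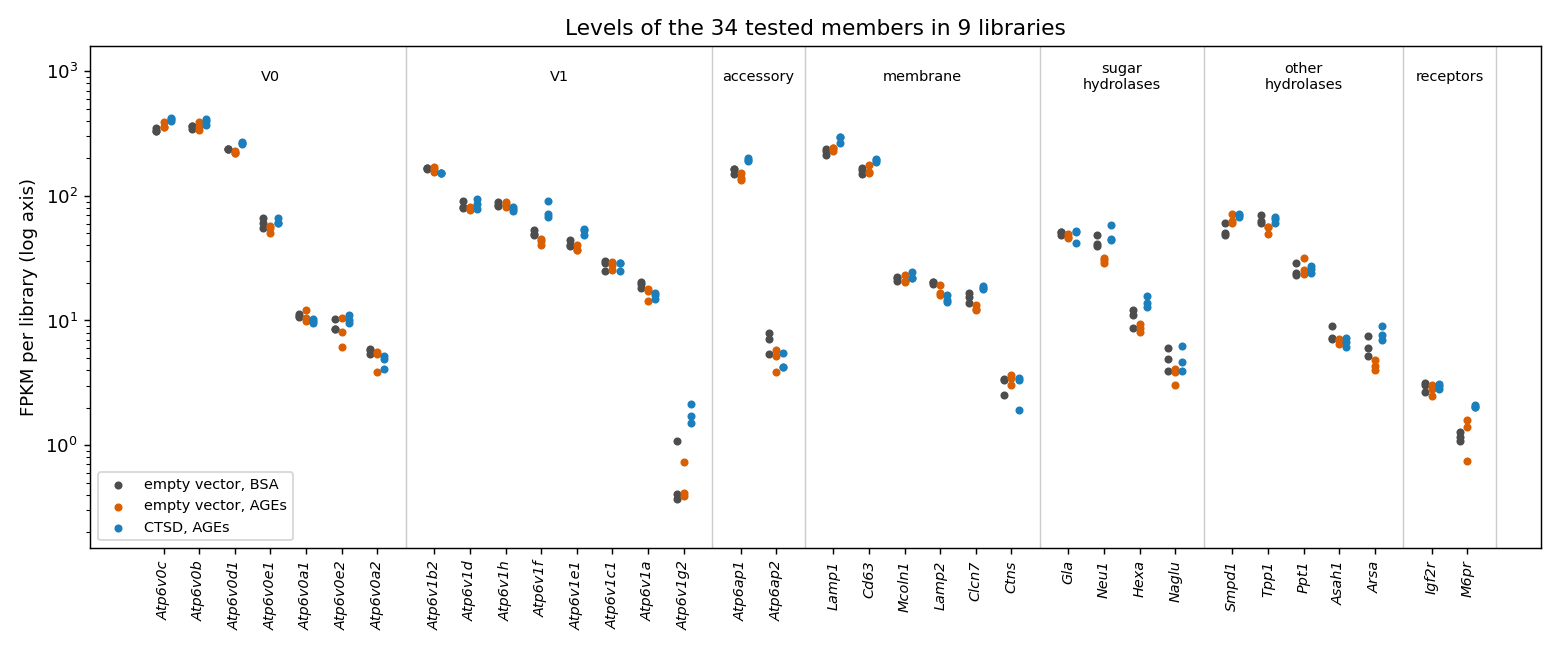
FPKM on a log axis of the 34 tested members in each of 9 libraries, grouped by role; each point is 1 library, with empty-vector BSA in grey, empty-vector AGEs in orange and CTSD with AGEs in blue. Members lie between 0.967 FPKM (Atp6v1g2) and 373 FPKM (Atp6v0c) on average, and differences between groups are small beside the differences between genes.

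Promoter sequence was the one property of the members examined that does not come from these libraries. RefSeq windows of the rat build GRCr8, from 250 bases before to 50 after the annotated gene start, were found for 43 of the 56 members. They were searched for CACGTG, the E-box core of the CLEAR element, and for the longer TCACGTGA, which contains it; both read the same on either strand. The core was in 11 of 43 member windows (25.6%) and in 2148 of all 33469 windows of the same length (6.42%). The longer form was in 6 of 43 (14%) and in 260 of all windows (0.777%). Many lysosomal genes are already known to carry the element, so these shares are a description and no test of it. The set of all windows was not matched to the members by gene type or base composition. The pump genes held the core in 2 of 20 windows (10%), so 9 of the 11 windows with the core belonged to named genes. By response, the core was in 4 of 11 windows of members that rose with CTSD (36.4%), 3 of 14 of those tested and not called (21.4%) and 4 of 18 of those under the filter (22.2%). The longer form was in 2 of 11 (18.2%), 3 of 14 (21.4%) and 1 of 18 (5.56%). The 11 include Atp6v1g2, without a match, which was tested through the CTSD libraries and whose call supports nothing. Hexa and Arsa rose too but had no window. The windows of 5 members are shown because they span the range of matches and of response to CTSD: Lamp1 held the most matches of any member, Atp6v0d1 and Clcn7 held 1 each and rose, Mcoln1 held 2 and did not pass the test, and Atp6v1f rose most of the well-covered members with no match. Matches to CACGTG are in capitals, and each window is written 5′ to 3′ on the strand of its gene.
Lamp1, chr16:83075014-83075313, minus strand: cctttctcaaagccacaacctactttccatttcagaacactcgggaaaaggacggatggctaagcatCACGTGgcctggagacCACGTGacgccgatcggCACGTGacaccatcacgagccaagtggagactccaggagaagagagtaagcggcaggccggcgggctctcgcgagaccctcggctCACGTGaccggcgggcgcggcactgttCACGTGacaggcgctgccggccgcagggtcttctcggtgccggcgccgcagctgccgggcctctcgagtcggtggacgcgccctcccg
Atp6v0d1, chr19:50357199-50357498, minus strand: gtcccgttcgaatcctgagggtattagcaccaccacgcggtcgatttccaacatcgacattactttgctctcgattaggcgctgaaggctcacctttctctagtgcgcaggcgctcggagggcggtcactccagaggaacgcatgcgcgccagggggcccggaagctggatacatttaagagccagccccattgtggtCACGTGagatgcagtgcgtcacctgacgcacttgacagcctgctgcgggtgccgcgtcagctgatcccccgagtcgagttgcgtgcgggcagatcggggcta
Clcn7, chr10:14656011-14656310, plus strand: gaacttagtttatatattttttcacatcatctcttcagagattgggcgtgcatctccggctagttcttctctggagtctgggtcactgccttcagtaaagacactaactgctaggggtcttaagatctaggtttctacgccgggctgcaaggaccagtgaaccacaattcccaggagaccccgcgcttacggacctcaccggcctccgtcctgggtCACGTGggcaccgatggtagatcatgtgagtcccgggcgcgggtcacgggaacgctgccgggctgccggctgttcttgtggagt
Mcoln1, chr12:6358008-6358307, plus strand: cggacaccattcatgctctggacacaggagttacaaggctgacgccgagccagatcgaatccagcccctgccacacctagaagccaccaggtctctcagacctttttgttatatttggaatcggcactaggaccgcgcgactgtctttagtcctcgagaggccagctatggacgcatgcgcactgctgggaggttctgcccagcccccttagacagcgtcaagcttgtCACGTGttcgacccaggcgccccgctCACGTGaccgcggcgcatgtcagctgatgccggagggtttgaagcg
Atp6v1f, chr4:59032770-59033069, plus strand: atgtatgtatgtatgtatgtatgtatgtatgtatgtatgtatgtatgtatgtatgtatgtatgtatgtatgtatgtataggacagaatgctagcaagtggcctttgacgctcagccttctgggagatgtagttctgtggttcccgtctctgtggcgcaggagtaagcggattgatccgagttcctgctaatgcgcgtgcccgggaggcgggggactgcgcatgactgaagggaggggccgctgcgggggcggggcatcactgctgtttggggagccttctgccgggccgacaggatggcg
In the Lamp1 window the 5 matches began at bases 68, 84, 101, 186 and 213 of 300. The single matches began at base 199 for Atp6v0d1 and at base 217 for Clcn7, and those of Mcoln1 at bases 229 and 255. The core was also in the windows of Atp6v0e1, Cd63, Cln3, Gaa, Glb1, Idua and Igf2r. A match is a stretch of letters, and binding was not measured.

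What AGEs do to these genes is asked by setting the empty-vector AGEs libraries against the BSA libraries. Of 34 tested members 2 fell, Neu1 and Tpp1, and 0 rose (5.88% called). Over all 8532 genes tested, 15% were called in this comparison, 6.05% higher and 8.92% lower. Of the genes called, 40.4% were higher by the deposited scaling and 58.9% by median-of-ratios scaling between libraries, which called Neu1 lower and Atp6v0c and Smpd1 higher among members. Calls here and below are limma moderated tests on log2(FPKM + 1) with a Benjamini-Hochberg adjusted p under 0.05 over all genes tested. The median log2 fold change of the 34 was -0.08, against -0.057 for all genes tested. The groups did not overlap for 10 of the 34 members, against 32.5% of all genes tested. None of the 17 pump members passed, with log2 fold changes from -0.39 to 0.13. Some alternatives called 1 or 2 of them: Atp6ap1 lower with quantile normalization (limma adjusted p = 0.0413), with voom (0.0497) and without empty-vector AGEs replicate 2 (0.0415), Atp6v0d1 lower with quantile normalization (0.0492), Atp6v1f lower without CTSD replicate 1 (0.0492), and Atp6v0c higher with median-of-ratios scaling (0.035).

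Neu1 (ENSRNOG00000032942, chromosome 20, 4610995 to 4615247 as deposited) encodes the lysosomal sialidase, which trims sialic acid from glycoproteins. Its FPKM was 48.2, 41.3 and 39.3 in the BSA libraries and 29.2, 31.6 and 30.8 in the AGEs libraries. Every AGEs library lay below every BSA library. The log2 fold change was -0.47 (SE 0.11, limma adjusted p = 0.0186), and the adjusted p was 0.0702 without empty-vector BSA replicate 1 and 0.0657 without empty-vector AGEs replicate 1. Tpp1 (ENSRNOG00000019212, chromosome 1, 170588035 to 170594168), the tripeptidyl peptidase gene, stood at 60.8, 69.8 and 62.9 FPKM with BSA and 56.3, 56.1 and 49.8 with AGEs. These groups did not overlap either, but the gap was narrow. Its log2 fold change was -0.25 (SE 0.07, limma adjusted p = 0.0473). That call was lost without any 1 of the 9 libraries, at a limma adjusted p from 0.0545 without CTSD replicate 2 to 0.148 without empty-vector BSA replicate 2, and with replicate as a block (0.0643). Without empty-vector BSA replicate 1 or empty-vector AGEs replicate 1, 0 of 34 members were called, against 806 and 760 of all 8532 genes tested.

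Several members missed the threshold with AGEs while their groups did not overlap. With Neu1 and Tpp1 they make up the 10 of 34 members without overlap, against 32.5% of all genes tested. Lower were Arsa, Clcn7, Atp6v0d1, Atp6v1a, Atp6v1f, Lamp2 and Asah1. Atp6v0c was higher, with 331, 334 and 348 FPKM with BSA and 358, 393 and 357 with AGEs (log2 fold change 0.13, limma adjusted p = 0.0915). Arsa, the sulfatide-cleaving arylsulfatase A gene, had 6.01, 7.53 and 5.17 FPKM with BSA and 3.99, 4.31 and 4.82 with AGEs, with no overlap (log2 fold change -0.42, limma adjusted p = 0.0926). Clcn7, whose product exchanges chloride for protons across the lysosomal membrane, had 15.3, 13.7 and 16.5 FPKM against 12.1, 13.2 and 12.3 (-0.25, limma adjusted p = 0.0857). The groups did not overlap here. Smpd1 went the other way, with 48.8, 60.3 and 50.7 FPKM in BSA and 63.1, 71.7 and 60.2 in AGEs libraries. The highest BSA library stood just above the lowest AGEs library. On the log2 scale the change was 0.28 (limma adjusted p = 0.0543). Alternatives went both ways: the limma adjusted p was 0.0468 with replicate as a block and 0.0277 with median-of-ratios scaling. It was 0.102 in the fit of the 2 groups alone and 0.168 without empty-vector AGEs replicate 2.

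The effect of cathepsin D in AGEs-exposed cells is asked by setting the CTSD libraries against the empty-vector AGEs libraries, which the comparison above also used. Of 34 tested members 13 rose and 0 fell (38.2% called). The background over all 8532 genes was 30.7% called, 18.6% higher and 12% lower. Those that rose were 6 of 17 pump genes (Atp6v0c, Atp6v0d1, Atp6v1e1, Atp6v1f, Atp6v1g2 and Atp6ap1), 3 of 6 membrane protein genes (Lamp1, Cd63 and Clcn7), 2 of 4 sugar hydrolases (Hexa and Neu1) and 2 of 5 other hydrolases (Arsa and Tpp1). Neither of the 2 receptor genes passed. Atp6v1g2 reached 1 FPKM in all 3 CTSD libraries and in 1 of the other 6, so it was tested through the group where it is high and its call supports nothing. Among members with a mean of at least 5 FPKM, which leave it out, 12 of 29 rose, 5 of 16 in the pump. Under that filter 2580 of all 6008 genes tested were called, 1534 of them higher. The median log2 fold change was 0.14, against 0.055 for all genes tested. The groups did not overlap for 16 of the 34 members, against 43.9% of all genes tested. Changes were modest: apart from Atp6v1g2, ratios of mean FPKM ran from 1.12 for Atp6v0c to 1.81 for Arsa.

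The split of calls over all genes moved with the scaling, with 60.8% of called genes higher by the deposited scaling and 48.9% by median-of-ratios scaling. Median-of-ratios scaling called 2501 of 8533 genes tested, 1224 of them higher. For the 34 members that alternative gave 10 rises and 2 falls, the falls being Atp6v1b2 (log2 fold change -0.16, limma adjusted p = 0.0325) and Atp6v1h (-0.18, limma adjusted p = 0.0383). Atp6v1b2 was also called lower without empty-vector AGEs replicate 3 (-0.13, limma adjusted p = 0.0407). Atp6v0d1, Atp6v1e1, Atp6v1f, Atp6ap1, Lamp1, Clcn7, Hexa, Neu1 and Arsa were called in every setting in which they were tested. Atp6v0c, Cd63 and Tpp1 lost the call in at least 1.

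**Figure D2:**
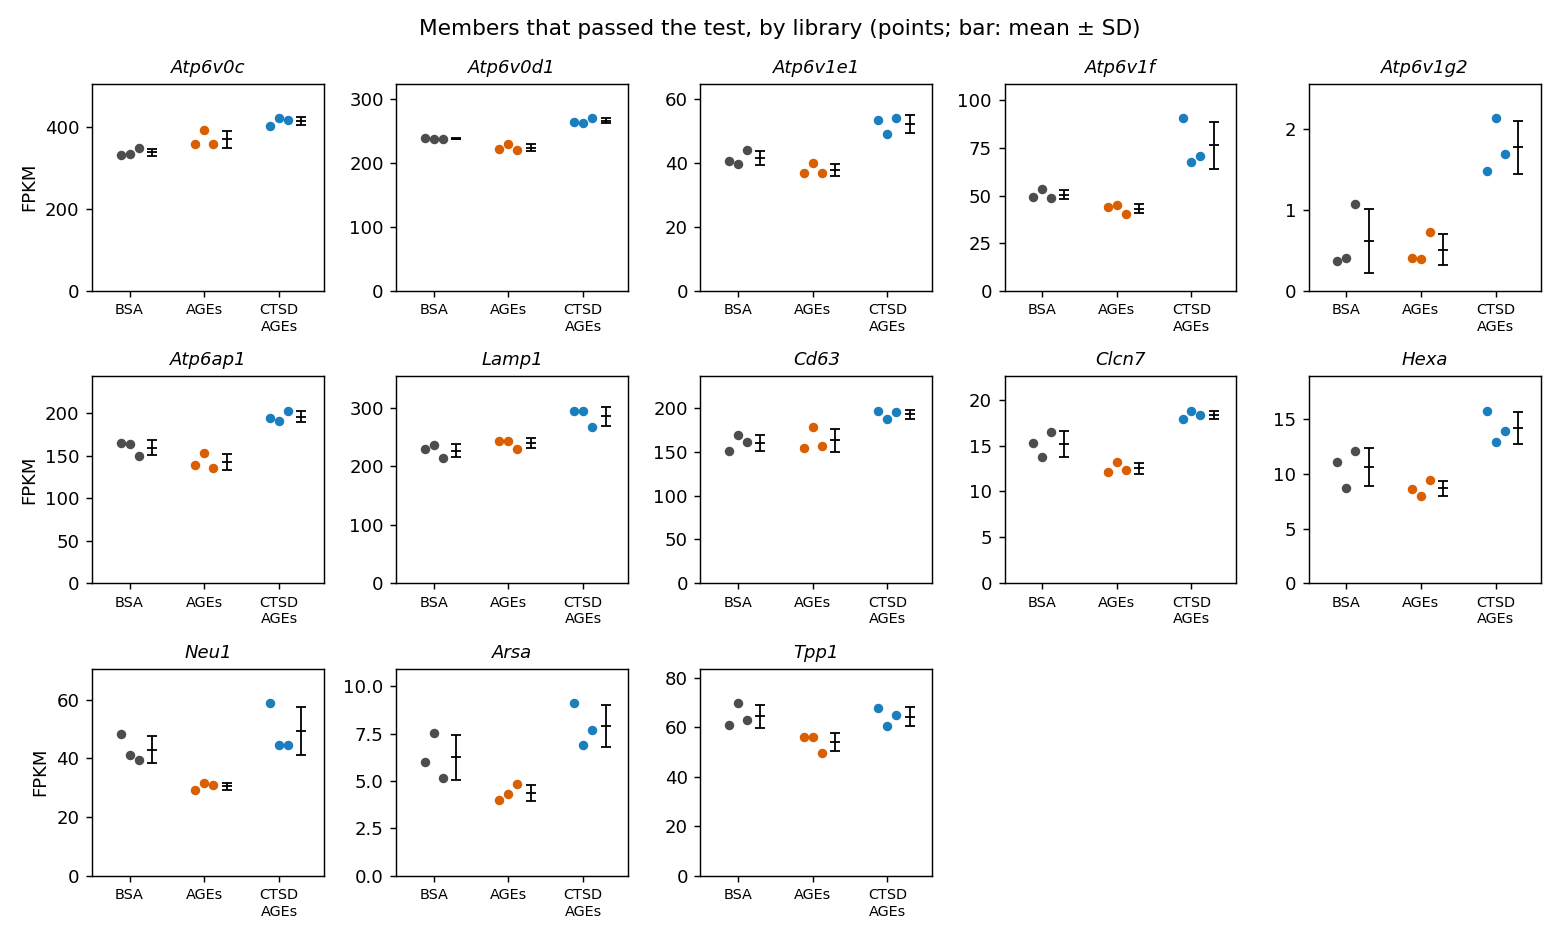
FPKM by library, on linear axes from 0, of the 13 members called with CTSD, which include the 2 called with AGEs; points are libraries of empty-vector BSA (grey), empty-vector AGEs (orange) and CTSD with AGEs (blue), and bars give the mean ± SD of 3 libraries. In each panel the 3 CTSD libraries lie above the 3 empty-vector AGEs libraries.

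Of 8 tested V1 genes, Atp6v1f, Atp6v1e1 and Atp6v1g2 passed. Atp6v1f (ENSRNOG00000007392, chromosome 4, 56744561 to 56747656) encodes the F subunit of the central stalk, which turns with the ring. It had 43.8, 44.9 and 40.5 FPKM in empty-vector AGEs and 90.7, 67.7 and 71.0 in CTSD libraries. All CTSD libraries lay above all others, the BSA libraries (49.4, 53.5 and 48.8) included. It rose by 0.80 on the log2 scale (SE 0.10, limma adjusted p = 0.000235). Atp6v1e1 (ENSRNOG00000011905, chromosome 4, 153351421 to 153373649), for the E subunit of the peripheral stalk, had 36.8, 40.1 and 37.0 FPKM in empty-vector AGEs and 53.6, 49.0 and 54.1 in CTSD libraries. It too stood above all BSA libraries, at 40.7, 39.8 and 44.1. Its log2 fold change was 0.45 (SE 0.07, limma adjusted p = 0.000718).

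Atp6v1g2, which encodes a G subunit of the same stalk known from mouse and human as the neuronal form, had 0.412, 0.393 and 0.728 FPKM in empty-vector AGEs and 1.49, 2.14 and 1.70 in CTSD libraries. Its groups did not overlap, and the log2 fold change on the FPKM + 1 scale, given as a description, was 0.88 (SE 0.21). This gene rested on 2 to 11 fragments per library, and it passed the filter through the CTSD libraries. It overlaps Nfkbil1 (560 bases) and 3 histocompatibility genes in the deposited annotation, with RT1-CE7 at a mean of 7.91 FPKM. Without strand in the table, fragments of overlapping genes cannot be told apart, so its value is uncertain.

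The other V1 subunits did not pass with CTSD. Atp6v1b2, the ATP-binding B subunit, had 166, 172 and 157 FPKM in empty-vector AGEs and 154 in each of the 3 CTSD libraries. That gap was just wide enough to leave no overlap (log2 fold change -0.10, SE 0.04, limma adjusted p = 0.11). Log2 fold changes were -0.05 for Atp6v1a, the catalytic A subunit (adjusted p = 0.726), and -0.13 for Atp6v1h, the regulatory H subunit (adjusted p = 0.114). Atp6v1d, the other central stalk subunit, had 0.10 (adjusted p = 0.361) and Atp6v1c1 had 0.01 (adjusted p = 0.957).

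In the V0 sector, Atp6v0d1 (ENSRNOG00000017235, chromosome 19, 37481782 to 37525762) had 222, 230.0 and 220.2 FPKM in empty-vector AGEs and 265, 263 and 270.4 in CTSD libraries. The libraries within each group lay close together. The rise was 0.25 on the log2 scale (SE 0.04, limma adjusted p = 0.00065). Atp6v0c (ENSRNOG00000006542, chromosome 10, 13537033 to 13542077), the ring subunit, had 358, 393 and 357 FPKM in empty-vector AGEs and 403, 421 and 417 in CTSD libraries. The lowest CTSD library stood only just above the highest AGEs library. Its log2 fold change was 0.17 (SE 0.05, limma adjusted p = 0.0208), and the call was lost without empty-vector AGEs replicate 1 (0.0788) or replicate 3 (0.0583), without CTSD replicate 2 (0.0711) or replicate 3 (0.0645), with median-of-ratios scaling (0.154) and with the gene length trend removed (0.106). For Atp6v0b, the other ring subunit gene and nearly as abundant, 356, 389 and 340.3 FPKM stood against 412, 368 and 398, and the groups overlapped (0.12, limma adjusted p = 0.157). Atp6v0a1, Atp6v0a2, Atp6v0e1 and Atp6v0e2 did not pass, with log2 fold changes from -0.11 to 0.31.

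Atp6ap1 (ENSRNOG00000054352, chromosome X, 156407937 to 156415145) encodes an accessory glycoprotein of the pump that is needed for its assembly. It had 139, 153 and 135 FPKM in empty-vector AGEs and 194, 191 and 203 in CTSD libraries. The CTSD libraries were the highest, and the BSA libraries, at 165, 164 and 150.0, overlapped the AGEs libraries. The log2 fold change with CTSD was 0.46 (SE 0.06, limma adjusted p = 0.000281). Atp6ap2, the prorenin receptor gene and the other accessory subunit tested, had 3.89, 5.19 and 5.84 FPKM against 5.44, 4.21 and 4.20. Its groups overlapped (-0.08, limma adjusted p = 0.774).

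**Figure D3:**
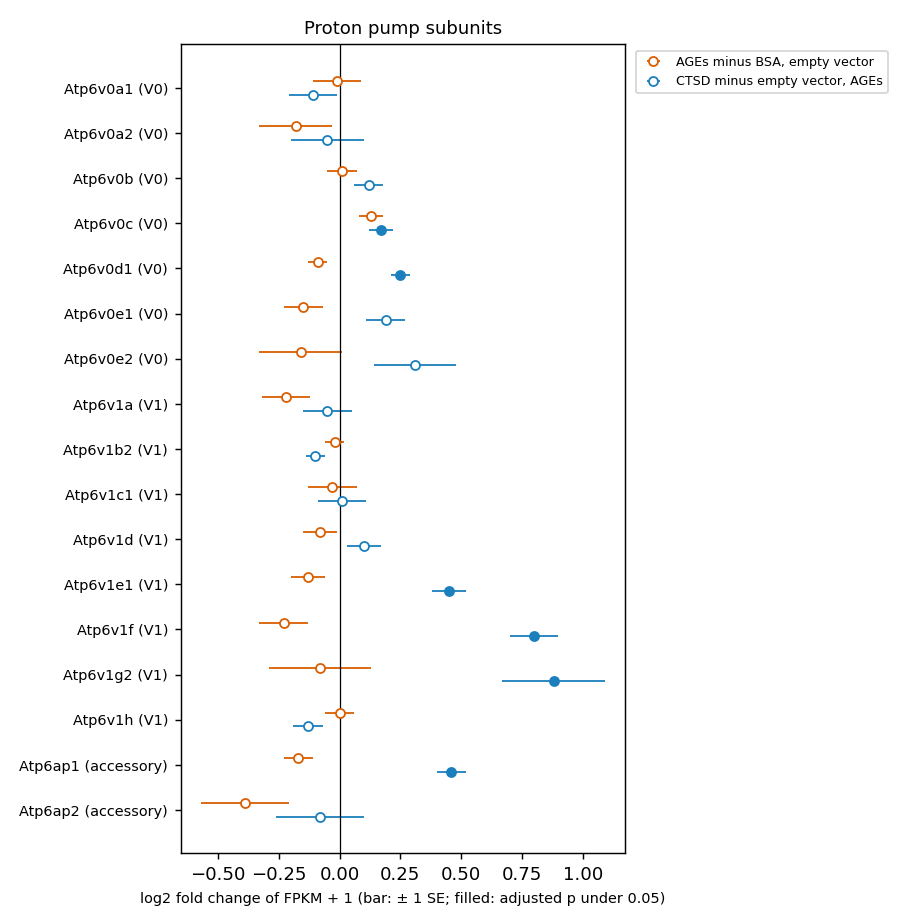
Log2 fold change of FPKM + 1, with ± 1 SE, of the 17 tested pump members for AGEs against BSA (orange) and CTSD against empty vector under AGEs (blue); filled points passed an adjusted p of 0.05. The 6 filled points all belong to the CTSD comparison, from 0.17 for Atp6v0c to 0.80 for Atp6v1f, beside Atp6v1g2 at 0.88, which rests on 2 to 11 fragments per library and was tested through the CTSD libraries; both comparisons use the same empty-vector AGEs libraries.

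Of the lysosomal membrane proteins, Lamp1 (ENSRNOG00000019629, chromosome 16, 81689335 to 81714419), whose promoter window held 5 matches to the E-box core, had 244, 244 and 229.5 FPKM in empty-vector AGEs and 295, 295 and 267 in CTSD libraries. The groups did not overlap. Lamp1 rose by 0.26 on the log2 scale (SE 0.05, limma adjusted p = 0.00517). Clcn7 (ENSRNOG00000016976, chromosome 10, 14492844 to 14516894) rose from 12.1, 13.2 and 12.3 FPKM to 17.9, 18.8 and 18.3, above its BSA values too. Its log2 fold change was 0.52 (SE 0.09, limma adjusted p = 0.00165). Cd63 (ENSRNOG00000007650, chromosome 7, 3320103 to 3335582) had 154, 178 and 157 FPKM against 197, 187 and 195. It rose by 0.24 (SE 0.06, limma adjusted p = 0.0138), a call lost without empty-vector AGEs replicate 1 (0.0567), with median-of-ratios scaling (0.0563) and with the gene length trend removed (0.0515).

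Lamp2, a related membrane protein that also serves chaperone-mediated autophagy, did not pass. Its FPKM was 16.7, 16.0 and 19.1 in empty-vector AGEs and 14.0, 14.7 and 16.0 in CTSD libraries. The groups met at 16.0 after rounding, and the log2 fold change was -0.20 (SE 0.09, limma adjusted p = 0.129; -0.26 and 0.0439 with quantile normalization). Mcoln1, a cation channel that releases lysosomal calcium, had 20.9, 23.0 and 20.5 FPKM against 21.9, 24.3 and 22.0 (0.08, adjusted p = 0.496). For Ctns, the cystine exporter gene, the log2 value was -0.20 (adjusted p = 0.47).

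Among sugar hydrolases, Neu1 had 29.2, 31.6 and 30.8 FPKM in empty-vector AGEs and 58.8, 44.6 and 44.7 in CTSD libraries. The lowest CTSD library was well above the highest AGEs library. Neu1 rose by 0.66 on the log2 scale (SE 0.11, limma adjusted p = 0.00138). Hexa (ENSRNOG00000010252, chromosome 8, 64325435 to 64350773), for the alpha subunit of the hexosaminidase that degrades GM2 ganglioside, had 8.65, 8.02 and 9.42 FPKM against 15.8, 12.9 and 13.9. These groups stood apart as well, with a log2 fold change of 0.65 (SE 0.13, limma adjusted p = 0.00372). Naglu had 3.88, 3.04 and 4.11 FPKM against 6.22, 4.63 and 3.91, with overlap (0.33, adjusted p = 0.216). For Gla, the alpha-galactosidase A gene, the log2 value was 0.02 (adjusted p = 0.908).

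Among the other hydrolases, Arsa (ENSRNOG00000012953, chromosome 7, 130446668 to 130451283) had 3.99, 4.31 and 4.82 FPKM in empty-vector AGEs and 9.10, 6.91 and 7.67 in CTSD libraries. All CTSD libraries lay above all AGEs libraries. Arsa rose by 0.72 on the log2 scale (SE 0.15, limma adjusted p = 0.00493). Tpp1 had 56.3, 56.1 and 49.8 FPKM against 67.8, 60.5 and 64.9, and its BSA libraries ran from 60.8 to 69.8. It rose by 0.25 (SE 0.07, limma adjusted p = 0.0277), a call lost without CTSD replicate 1 (0.096) or replicate 3 (0.0739), without empty-vector AGEs replicate 3 (0.087), with median-of-ratios (0.0863) or quantile scaling (0.0576) and with the gene length trend removed (0.0569). The sphingolipid enzyme genes Smpd1 (0.10, adjusted p = 0.416) and Asah1, for acid ceramidase (-0.02, adjusted p = 0.915), and Ppt1, which removes palmitate from proteins (-0.06, adjusted p = 0.768), did not pass.

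In the 4 hydrolase genes that rose, CTSD replicate 1 was the highest library, and so it was in all 9 tested hydrolase members. Across all genes tested CTSD replicate 1 was the highest of its group for 36.6%. Without it the log2 fold change was 0.53 for Neu1 (limma adjusted p = 0.00303), 0.58 for Hexa (0.0184), 0.63 for Arsa (0.0235) and 0.21 for Tpp1 (0.096).

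The receptors that deliver hydrolases did not pass. M6pr, the cation-dependent mannose 6-phosphate receptor gene, had 1.40, 1.60 and 0.740 FPKM in empty-vector AGEs and 2.10, 2.02 and 2.01 in CTSD libraries. The groups did not overlap, on 9 to 25 fragments per library (0.46, SE 0.18, limma adjusted p = 0.077). Igf2r, the other receptor gene, had 2.80, 3.03 and 2.49 FPKM against 3.07, 2.84 and 2.98, with overlap (0.07, limma adjusted p = 0.733).

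**Figure D4:**
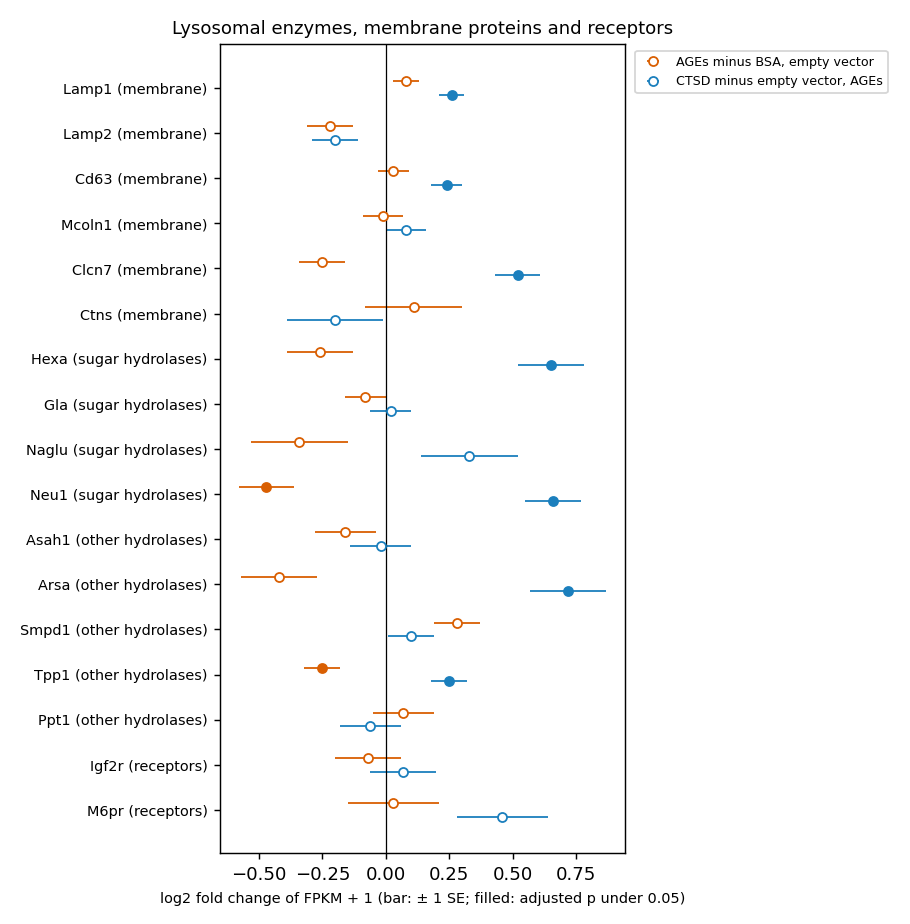
Log2 fold change of FPKM + 1, with ± 1 SE, of the 17 tested lysosomal enzyme, membrane protein and receptor genes for AGEs against BSA (orange) and CTSD against empty vector under AGEs (blue); filled points passed an adjusted p of 0.05. Neu1 and Tpp1 are filled below 0 for AGEs, and 7 genes are filled above 0 for CTSD, from 0.24 for Cd63 to 0.72 for Arsa; both comparisons use the same empty-vector AGEs libraries.

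Smooth muscle markers moved with CTSD as well. The summed level of the 10 markers was 157 to 175 FPKM in BSA, 138 to 139 in empty-vector AGEs and 213 to 217 in CTSD libraries. With CTSD under AGEs 3 of the 5 tested rose (Acta2, Tagln and Tpm2) and 0 fell (60% called). Over all genes tested 30.7% were called there, 18.6% higher. With AGEs against BSA 1 of the 5 fell and 0 rose, against 8.92% of all genes called lower. The part of these marker differences, or of the macrophage markers' level, in the lysosomal values was not tested. With the trend of each library with gene length removed, 10 members rose and 0 fell. That setting called 2583 of all 8532 genes tested, 1278 of them higher.

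CTSD cells under AGEs were also set against empty-vector cells with BSA, to show where the members lie relative to cells without AGEs. This comparison shares libraries with both others. Of 34 members 11 rose and 1 fell (35.3% called), against 32.6% of all genes tested, 16.3% higher and 16.3% lower. Among members with a mean of at least 5 FPKM, which leave out Atp6v1g2, 10 of 29 rose and 3 fell. Under that filter 2639 of all 6008 genes tested were called, 1364 of them higher. The pump genes called against empty-vector AGEs also passed here, Atp6v1g2 again through the CTSD libraries, and Lamp1 (log2 fold change 0.33, SE 0.05, limma adjusted p = 0.00135) and Cd63 (0.27, adjusted p = 0.0089) did as well. Smpd1 was higher, at 72.0, 67.6 and 69.7 FPKM against 48.8, 60.3 and 50.7 with BSA (0.39, SE 0.09, limma adjusted p = 0.00773). Lamp2 was lower, at 14.0, 14.7 and 16.0 FPKM against 20.5, 20.5 and 19.5 (-0.41, SE 0.09, limma adjusted p = 0.00636). For both genes the groups did not overlap, as for 19 of 34 members and 48.8% of all genes tested. Other settings called 1 to 4 members lower. Atp6v1a (-0.28, limma adjusted p = 0.0505) and Atp6v1b2 (-0.12, 0.0533) just missed the threshold, with no overlap between groups, and both were called lower in the fit of the 2 groups alone (0.0346 and 0.0394), with the mean filter of 5 FPKM (0.0405 and 0.0398), with voom (0.035 and 0.0407), and when empty-vector AGEs replicate 2 (0.0299 and 0.0459) or 3 (0.0419 and 0.029) was left out. Atp6v1a was also called lower with median-of-ratios scaling (0.0465) and a pseudocount of 0.1 (0.0489), and Atp6ap2 with voom (0.0493) and without empty-vector BSA replicate 3 (0.0364).

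Of 9 tested hydrolases Smpd1 and Hexa passed in this comparison and none fell. Tpp1 was at 64.4 ± 3.67 FPKM (SD, n = 3) in CTSD and 64.5 ± 4.72 in BSA libraries (adjusted p = 0.989 by limma), and Neu1 (0.19, adjusted p = 0.223) and Arsa (0.30, adjusted p = 0.154) overlapped between the groups. Hexa was higher by 0.39 (limma adjusted p = 0.04) and Clcn7, the exchanger gene, by 0.26 (limma adjusted p = 0.0456). Both passed only without empty-vector BSA replicate 3 or empty-vector AGEs replicate 2 or 3 among the 9 fits with 1 library left out. In the other 6 the limma adjusted p was 0.0503 to 0.136 for Hexa and 0.0583 to 0.149 for Clcn7. Atp6v1g2, on few fragments, did not pass without empty-vector BSA replicate 1 (limma adjusted p = 0.059) or replicate 2 (0.055) or without CTSD replicate 2 (0.0581).

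Other genes of the lysosome outside the 56 were counted from lists. Each count with CTSD stands against 18.6% of all genes tested called higher and 12% called lower. With CTSD under AGEs, 4 of 14 tested further hydrolases and their modifiers rose and 0 fell (28.6% called), with a median log2 fold change of 0.29. Ppt2, a thioesterase gene, went from 2.26 ± 0.451 to 5.59 ± 0.279 FPKM (SD, n = 3; 1.02, limma adjusted p = 0.00464), and Plbd2 rose by 0.39 (limma adjusted p = 0.00201). Of 15 tested further membrane proteins 3 rose and 2 fell (median -0.01), or 33.3% called against 30.7% of all genes. Pip4p1, which encodes a lysosomal phosphoinositide phosphatase that recruits the transport adaptor JIP4, went from 36.7 ± 2.90 to 70.2 ± 3.66 FPKM (0.92, limma adjusted p = 1.35e-05). Lmbrd1, needed for cobalamin export from the lysosome, went from 11.9 ± 2.27 to 6.15 ± 0.960 FPKM (-0.84, limma adjusted p = 0.00172). Abca2 rose by 0.45, and Tmem9 by 0.35, which did not pass without CTSD replicate 1 (limma adjusted p = 0.153), empty-vector AGEs replicate 2 (0.0757) or 3 (0.126), or empty-vector BSA replicate 3 (0.0564).

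Of 14 tested genes for enzyme tagging and vesicle delivery 5 rose and 2 fell (median 0.19; 50% called, against 30.7% of all genes), among them the sorting receptor gene Sort1 (0.41, limma adjusted p = 0.0045) and the clathrin adaptor gene Ap1s1 (0.42, limma adjusted p = 0.000531), while Ap3s1 fell by 0.30. Gnptg also rose, by 0.53, which did not pass without CTSD replicate 2 (limma adjusted p = 0.102) or 3 (0.0684) or without empty-vector AGEs replicate 1 (0.0802) or 3 (0.0854). Of 16 tested genes for TFEB family factors and nutrient sensing at the lysosome 6 rose and 1 fell (median 0.20; 43.8% called). Rraga, a GTPase that brings mTORC1 to the lysosome, went from 163 ± 1.71 to 234 ± 8.45 FPKM (0.52, limma adjusted p = 1.94e-05), and Tsc2 rose by 0.58 and Mtor by 0.42. Rheb, the activator of mTORC1, fell by 0.31 (limma adjusted p = 0.000871). Fnip2 rose by 0.52, which did not pass without CTSD replicate 1 (limma adjusted p = 0.126) or empty-vector AGEs replicate 1 (0.0879) or 2 (0.0921). Of 10 tested lysosome positioning genes 6 rose and 1 fell (median 0.42; 70% called, against 30.7% of all genes), with Plekhm1 (0.53, limma adjusted p = 0.000307), Kxd1 (0.55), Bloc1s1 (0.53) and Snapin (0.53) higher. Arl8b, a GTPase that couples lysosomes to kinesin, fell by 0.34 (limma adjusted p = 0.00352) and its paralog Arl8a rose by 0.35 (0.000925). Rheb, Arl8a and Arl8b are named after their values were seen. Of 6 tested genes for pump assembly 1 rose, Rogdi (0.81, limma adjusted p = 0.000473), and 0 fell (median -0.07; 16.7% called). Of the 31 genes of these lists called with CTSD, 24 passed without any 1 library.

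With AGEs against BSA, these lists gave 1 rise and 1 fall of 14 further hydrolases, 1 and 1 of 15 membrane proteins, 1 and 3 of 14 delivery genes, 2 and 3 of 16 TFEB and nutrient-sensing genes, 0 and 2 of 10 positioning genes, and 0 and 0 of 6 assembly genes. These are 14.3%, 13.3%, 28.6%, 31.2%, 20% and 0% called, against 15% of all genes tested (6.05% higher, 8.92% lower). Their median log2 fold changes were -0.11, 0.06, -0.04, -0.11, -0.16 and -0.07. Rraga went from a mean of 227 to 163 FPKM (-0.48, limma adjusted p = 0.000138), Pip4p1 from 49.5 to 36.7 (-0.42, limma adjusted p = 0.00328) and Mtor from 15.1 to 10.1 (-0.54, limma adjusted p = 0.00602). Fnip2, whose product takes part in nutrient sensing, went from 3.50 to 1.65 FPKM (-0.77, limma adjusted p = 0.0105). Tfeb itself was low and rose from 1.82 to 3.19 FPKM (0.56, limma adjusted p = 0.0449), which did not pass in 8 of 9 fits with 1 library left out (0.062 to 0.131; it passed without empty-vector AGEs replicate 1) or with replicate as a block (0.0641). Of the 15 genes of these lists called with AGEs, 10 lost the call when some library was removed. With CTSD under AGEs the log2 fold change of Tfeb was -0.21 (limma adjusted p = 0.363).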

How the data were processed

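The deposited values are FPKM, computed by the authors per gene and library after alignment to a reference genome, per the labels' protocols. Poly-T capture, a NEBNext Ultra kit and 150-base read pairs preceded this, per the same labels. The sources used here do not name the aligner or annotation. The submitters' processing notes name the mouse build mm10, while identifiers are rat, so gene positions are printed as deposited, without a build.

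Genes reaching 1 FPKM in 3 or more of the 9 libraries were tested as log2(FPKM + 1) with limma 3.58.1 (R 4.3.3), 1 mean per group over all 9 libraries, an intensity trend and two-sided moderated tests, adjusted within each comparison over all genes. A pseudocount of 1 makes fold changes of genes near 1 FPKM smaller than ratios of means. FPKM times gene length gave whole fragments (within 0.1 of a whole number for 99.39% to 99.56% of values under 200 fragments). The model was also run on simulated fragments, drawn with a single spread for all genes and no replicate structure or scaling shift. That run does not show how the model behaves on these libraries. No 2 libraries of a group agreed within sampling noise (chi-square per degree of freedom 1.98 to 7.14). Members and lists were chosen with earlier results of these data known. Lists came from general knowledge. Every member is accounted for, those called in either comparison of the study's design are given in full, and up to 4 called genes of each other list are named; some are not reported here.

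Same-numbered BSA and empty-vector AGEs libraries had correlated residuals (0.14, 0.14 and 0.15), so the replicate block stands beside results it changes there. Alternatives were a smaller pseudocount (0.1), a filter on means of 5 FPKM or none, median-of-ratios and quantile scaling, the block, 2 groups alone, each library left out, voom on fragments, and removal of length trends. Python 3.11.15, pandas 2.3.3, scipy 1.17.1 and matplotlib 3.10.9 were used.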

Additional observations from a re-analysis of the deposited data

How the results depend on the processing

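The count of lysosomal members called with AGEs against BSA, 2 of 34, was 1 in the fit of the 2 groups alone and with no filter on expression, and 4 with quantile normalization and with voom on recovered fragments. Over all genes tested these settings called 928 of 8532, 1043 of 12002, 1165 of 8532 and 1546 of 8532. The member count ranged from 0 to 2 with 1 library left out, while calls over all 8532 genes ranged from 760 to 1605. With the replicate block the member count was 2, Neu1 and Smpd1, and 1213 of 8532 genes were called. With CTSD against empty vector under AGEs the count of 13 ranged from 11 to 15 with 1 library left out and from 10 to 14 otherwise, and was 14 with the replicate block, which added Atp6v0e1 (limma adjusted p = 0.0364). There same-numbered libraries did not pair (correlations of residuals 0.08, -0.03 and 0.07). In that comparison calls over all 8532 genes ranged from 2095 to 2524 with 1 library left out. Otherwise they ran from 2366 of 12002 with no filter to 2756 of 8532 with voom, with 2581 of 8532 under the block. For CTSD with AGEs against BSA, 12 became 9 to 15 with 1 library left out and 10 to 15 otherwise, with 11 under the block. Calls over all 8532 genes ranged there from 2108 to 3090 with 1 library left out. Otherwise they ran from 2445 of 12002 with no filter to 2993 of 8532 in the fit of the 2 groups alone. Ctsd passed throughout, and no member called in the first 2 comparisons changed direction under any alternative run. For the 13 called with CTSD, 8 of 117 fits with a library left out and 7 of 116 others lost the call, all of Atp6v0c, Cd63 or Tpp1. Those 8 fits each left out a CTSD or an empty-vector AGEs library. The 117 also include fits without a BSA library, which cannot change these fold changes. Fits of Atp6v1g2, whose call supports nothing, are counted in both totals. Depth limits Atp6v1g2, M6pr and Ctns most, with as few as 2, 9 and 17 fragments in a library.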

Other observations

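In Atp6v1f and Neu1 the spread was widest in the CTSD group, with an SD of 12.5 and 8.19 FPKM, and replicate 1 stood above the other two libraries there. In Hexa and Arsa replicate 1 was also the highest CTSD library, but the SD was larger with BSA (1.70 and 1.19 FPKM) than with CTSD (1.46 and 1.11). Among the 17 tested pump members CTSD replicate 1 was the highest of its group in 7, and among the 8 tested membrane protein and receptor genes in 4. This pattern was noticed after the values were seen and its cause was not tested.

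Within the empty-vector AGEs group, replicate 2 was the highest library for 10 of 17 tested pump members and for 32.3% of all genes tested.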
